A study of Homo sapiens with 6 samples.

Results

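TE13R is a radioresistant line that was derived from TE13, a human esophageal squamous carcinoma cell line, by repeated doses of radiation given over a long period. The study calls TE13R a clone, so that what was measured may belong to 1 clone. The 3 arrays titled TE13R 0h, TE13R 8h and TE13R 24h were taken from the 6 arrays of the TE13 pair by their titles, and the RNA on them was collected 0, 8 and 24 h after X-ray irradiation. The 3 TE13 arrays of the same time points served only to mark which changes of TE13R were not shared by the parental line. Each line and time point had 1 array, so no error between cultures can be given and no test was possible. The methods describe the profiling as done in triplicate, whereas no array here has a replicate number in its title or description. No dose of radiation for the arrays was found in the labels or the methods. No array of an unirradiated culture at 8 h or 24 h was analysed, so an effect of irradiation and an effect of time in culture cannot be told apart.

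Ionizing radiation breaks both strands of DNA. Kinases such as ATM then signal the damage, p53 raises the transcription of genes that halt the cell cycle, repair DNA or start apoptosis, and the damaged cells may slow protein synthesis through the integrated stress response, whose main transcription factor is ATF4. Irradiated cells can also sense their own displaced nucleic acids and switch on interferon-stimulated genes. Squamous cells of the esophagus carry basal keratins such as KRT5 and KRT14 and, as they mature, KRT4 and KRT13.

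The measured value was the fluorescence intensity of a probe after subtraction of the background, on a linear scale. Changes are given as differences of log2(intensity + 16), with negative intensities taken as 0, a scale that understates the fold change of a dim gene. The detection limit of each array, 20.2, was set at 3 times the spread (root mean square) of its negative values. Of 18665 genes on the array, 11051 were above that limit on average over the 3 TE13R arrays and were measured by their brightest probe. A gene was counted as higher or lower where it changed at least 2-fold, which is 1 log2 unit, with the brighter array above the limit. Folds in the text are ratios of intensities. Where the dimmer array was below the limit, the limit took its place and the fold is given as a lower bound. With so few arrays the precision of a single value is unknown.

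All 14 squamous lineage markers on the array, of 17 listed, were above the limit on each of the 3 TE13R arrays, with summed intensities of 85420 at 0 h, 87241 at 8 h and 69354 at 24 h. SFN made up much of the sum at 8 h, with 10729, 37625 and 12452 at 0, 8 and 24 h. Of the 14 markers, 6 were lower and 3 higher at 8 h, and 4 were lower and 0 higher at 24 h. The lower ones are 42.9% at 8 h and 28.6% at 24 h, against 26.3% and 22.3% of all genes measured. Among 13 fibroblast markers 2 or 3 were above the limit, with sums of 1181, 1019 and 2238 at 0, 8 and 24 h, while COL1A1, COL1A2, COL3A1 and DCN were below it on every TE13R array. Of 12 leukocyte markers 2, 5 and 5 were above the limit at 0, 8 and 24 h, with sums of 2485, 2498 and 4747, most of it from CD68, and PTPRC, CD3D and CD3E were below it throughout. Of 8 endothelial markers 2, 2 and 3 were above it, with sums of 998, 214 and 420 at 0, 8 and 24 h, nearly all of it from VWF and PECAM1, while CDH5 and KDR were below the limit. By their brightest probes the housekeeping genes changed less than 2-fold between the TE13R arrays. ACTB had intensities of 50638, 61022 and 49254 and GAPDH of 50897, 47329 and 55898 at 0, 8 and 24 h. A dimmer GAPDH probe had 7964, 12896 and 15413, a change of 0.69 at 8 h and 0.95 at 24 h on the log2 scale.

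At 8 h, 2433 genes (22% of those measured) were higher and 2903 (26.3%) were lower than at 0 h in TE13R. At 24 h, 2257 genes (20.4%) were higher and 2467 (22.3%) were lower than at 0 h. Which direction held more genes depended on the scaling, since with each array centred on its median 2775 were higher and 2638 lower at 8 h, and 2443 were higher and 2310 lower at 24 h. The 24 h and 8 h arrays were closer to each other, with 1249 genes (11.3%) higher and 852 (7.71%) lower at 24 h than at 8 h. The comparisons of 8 h and of 24 h with 0 h use the same 0 h array, and whatever is particular to it enters both. Only the comparison of 24 h with 8 h is free of that array. It shares the 8 h array with the comparison of 8 h with 0 h, so a value particular to that array enters both. From the TE13R arrays alone, a fall at 8 h that was undone by 24 h, or a rise that was lost, cannot be told apart from such a value. Across genes, the log2 intensities of TE13R at 8 h and 24 h had a Pearson r of 0.946, against 0.861 for 8 h with 0 h and 0.896 for 24 h with 0 h. The same time points of TE13R and TE13 gave r of 0.960 at 0 h, 0.971 at 8 h and 0.967 at 24 h. Genes are not independent replicates, and these values are given as a description.

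Of the 11051 genes, 1408 were higher and 1946 were lower at both times, 1015 were higher and 922 lower at 8 h only, and 814 were higher and 511 lower at 24 h only. A further 35 genes were lower at 8 h and higher at 24 h than at 0 h, among them GDF15, ATF3, NUPR1, PMAIP1, CLIC3 and WIPI1. The opposite course, higher at 8 h and lower at 24 h, was taken by 10 genes, among them CXCL1, PI3, BDNF and ITGB2. At neither time were 4390 genes changed 2-fold. Of the genes lower at 8 h, 713 were higher at 24 h than at 8 h, and of the genes higher at 8 h, 498 were lower at 24 h than at 8 h.

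**Figure D1:**
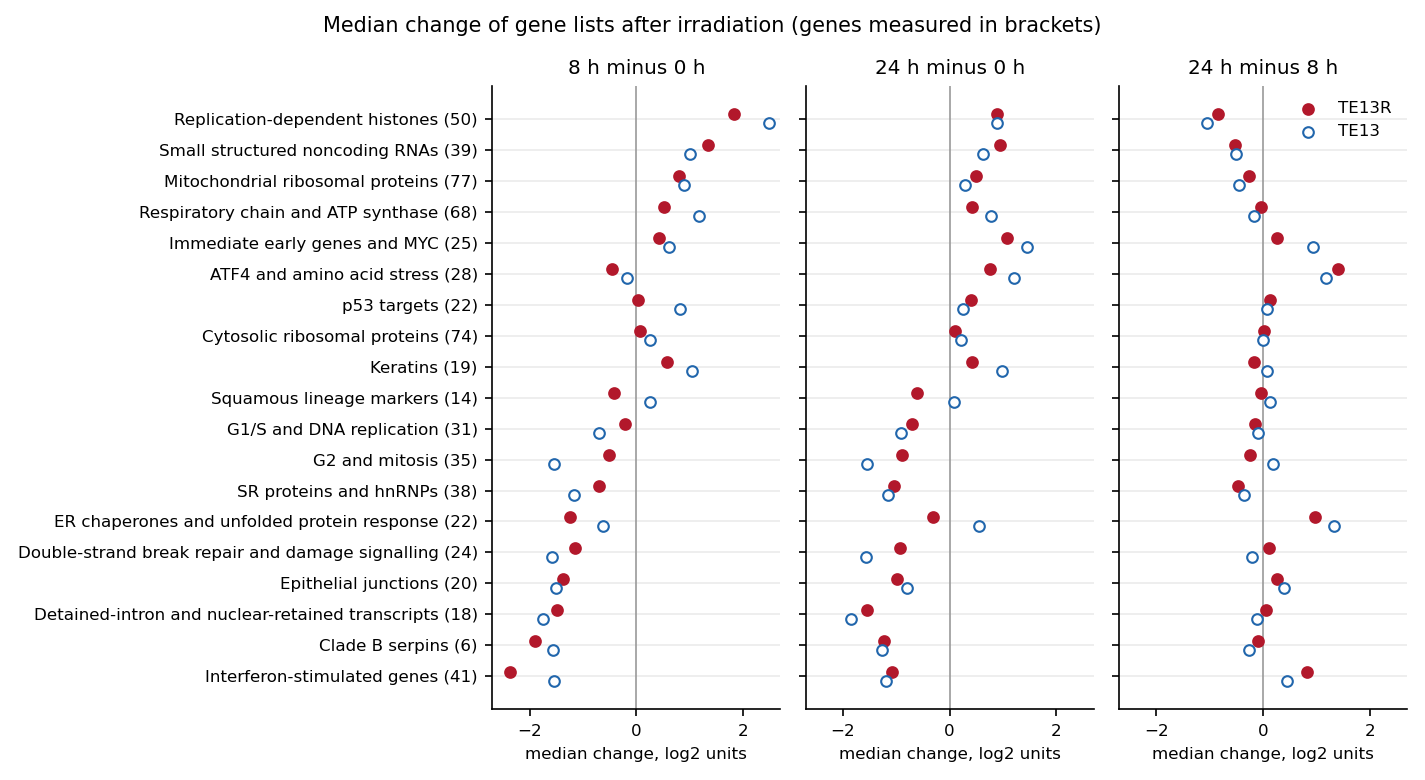
Median change of 19 gene lists in log2 units, for 8 h minus 0 h, 24 h minus 0 h and 24 h minus 8 h, with TE13R as filled points and TE13 as open points and the number of genes measured in brackets. Each point rests on 1 array per time point and has no error bar. In TE13R, histone genes were highest at 8 h (median 1.83) and interferon-stimulated genes lowest (median -2.36), and ATF4 target genes were higher at 24 h than at 8 h (median 1.41).

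Interferon-stimulated genes, which encode antiviral effectors and are switched on by interferon, made up the list with the lowest median at 8 h. Of 47 listed genes 41 were measured, and 24 of them were lower, 1 was higher (BST2) and 16 changed less than 2-fold at 8 h, with a median of -2.36, against 0.01 over all genes. At 24 h, 21 were lower and 3 were higher (IRF7, OASL and IFI35), with a median of -1.08. Between 8 h and 24 h, 20 of the 41 rose and 0 fell, with a median of 0.82. The lower ones are 58.5% of the list at 8 h and 51.2% at 24 h, against 26.3% and 22.3% of all genes. Those that rose between 8 h and 24 h are 48.8%, against 11.3% of all genes. In TE13 the medians were -1.54 at 8 h and -1.20 at 24 h. The medians of TE13R were also set against genes of like span, in 4 bins by length from start to end. With the median change of each bin taken off, they were -1.61 at 8 h and -0.76 at 24 h, the latter under the 2-fold level.

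The promoters of the genes that carry these values are shown because they hold the sequence that interferon-activated factors bind, the interferon-stimulated response element (ISRE). The windows come from RefSeq (GRCh38.p14), 250 bases before to 50 after a gene's start. The letters searched on both strands were GAAA and a second GAAA with any 2 letters between, and overlapping matches were counted. Capitals mark each match, and the strand given is that of the gene. IFI44L, DDX60 and IFIT1 were among the interferon-stimulated genes that fell at 8 h, while IFI27 and IFI6 changed less than 2-fold. The windows printed are chr1:78620254-78620414 (+) for IFI44L, chr4:168318766-168318870 (-) for DDX60, chr10:89392477-89392559 (+) for IFIT1, chr14:94110598-94110680 (+) for IFI27 and chr1:27672246-27672378 (-) for IFI6.
IFI44L: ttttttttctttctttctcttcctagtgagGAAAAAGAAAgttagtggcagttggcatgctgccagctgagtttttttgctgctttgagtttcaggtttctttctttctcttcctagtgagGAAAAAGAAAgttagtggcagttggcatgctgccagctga
DDX60: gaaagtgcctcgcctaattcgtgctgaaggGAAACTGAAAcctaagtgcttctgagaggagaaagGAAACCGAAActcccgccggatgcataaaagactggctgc
IFIT1: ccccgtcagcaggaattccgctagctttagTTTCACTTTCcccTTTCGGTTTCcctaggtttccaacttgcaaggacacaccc
IFI27: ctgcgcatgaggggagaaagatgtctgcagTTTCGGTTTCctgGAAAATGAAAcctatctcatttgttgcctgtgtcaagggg
IFI6: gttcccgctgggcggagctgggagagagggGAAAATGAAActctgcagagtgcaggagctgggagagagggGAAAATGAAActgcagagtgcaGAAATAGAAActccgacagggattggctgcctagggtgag
Each of the 5 windows holds at least 2 matches. A promoter window was found for 33 of the 41 measured genes, and 24 of the 33 (72.7%) hold a match, against 3.65% of all 27305 windows and 2.89% of the windows of measured genes. Of the 20 genes with a window that were lower at 8 h, 14 (70%) hold one. A match describes the letters only and is no sign that a factor was bound.

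IFI44L had the largest fall of any measured gene at 8 h. Its intensities were 1805 at 0 h, 2.59 at 8 h and 125 at 24 h, so that it was at least 89.5-fold lower at 8 h and 14.4-fold lower at 24 h. A second IFI44L probe moved less, by -0.44 at 8 h and -2.11 at 24 h on the log2 scale. DDX60, which encodes a helicase that aids RNA sensing, had 1140.3 at 0 h, -3.01 at 8 h and 401 at 24 h. It was therefore at least 56.6-fold lower at 8 h and only 2.84-fold lower at 24 h. TRIM22, an antiviral ubiquitin ligase, had 437, -0.872 and 35.2, and SAMD9L, an antiviral factor that restrains cell growth, had 373, -8.40 and 8.85 at 0, 8 and 24 h. Both were below the limit at 8 h, and SAMD9L was still below it at 24 h.

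IFIT1 and IFIT2, which bind foreign RNA and block its translation, followed the same course at higher intensity. IFIT1 had 3836 at 0 h, 300.1 at 8 h and 1631 at 24 h, a 12.8-fold lower value at 8 h, while a second IFIT1 probe changed by 0.11 at 8 h and -0.26 at 24 h on the log2 scale. IFIT2 had 3445, 229.7 and 1618 at 0, 8 and 24 h. MX1, a GTPase that blocks viral replication, had 17271, 2853 and 5796 and was 6.05-fold lower at 8 h. Several bright members of the list changed less than 2-fold. IFI27 had 41659, 39177 and 35499.8, IFITM3 had 21831, 18376 and 26187, and IFI6 had 8286, 6641 and 9219 at 0, 8 and 24 h. ISG15, a ubiquitin-like protein, had 9992, 11671 and 19714, and IRF7, the factor that drives type I interferon genes, had 126, 185 and 446, which made it 3.54-fold higher at 24 h. The IFITM genes are near-identical copies of each other, so their probes may share signal.

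Genes of the interferon system outside that list moved in both directions. Of 16 ligands, receptors and kinases measured, 6 were lower and 2 higher (SOCS1 and IRF3) at 8 h, and 5 were lower and 5 higher at 24 h. At 8 h this is 37.5% lower and 12.5% higher, against 26.3% and 22% of all genes. At 24 h it is 31.25% each way, against 22.3% lower and 20.4% higher. JAK1, the kinase that serves most interferon receptors, had 1042 at 0 h, 98.3 at 8 h and 281 at 24 h. It was 10.6-fold lower at 8 h. SOCS1, which inhibits the JAK kinases, had 38.3, 261 and 326 and was 6.82-fold higher at 8 h and 8.52-fold higher at 24 h. IFNL1, a type III interferon, had 22.2 at 0 h, 4.47 at 8 h and 519 at 24 h, a 23.4-fold higher value at 24 h, while IFNL2 had 0.540, 11.5 and 82.9, above the limit at 24 h only. The IFNL genes are near-identical copies, so that their probes may not be separate. TNFSF10, the death ligand TRAIL and itself an interferon target, had 1286, 5.67 and 248 at 0, 8 and 24 h, and was at least 63.8-fold lower at 8 h and 5.18-fold lower at 24 h.

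Falls at 8 h that were partly or wholly undone by 24 h were not confined to interferon-stimulated genes. VAV3, a guanine nucleotide exchange factor, had 902 at 0 h, 0.0740 at 8 h and 166 at 24 h. It was at least 44.8-fold lower at 8 h. FYB1, an adaptor of immune cell signalling, had 971, 8.84 and 190.1. FBXO32, a ubiquitin ligase subunit of muscle wasting, had 6919.5, 179 and 4318, so that it was 38.7-fold lower at 8 h and 1.60-fold lower at 24 h, and its other probe changed by -2.30 at 8 h on the log2 scale. At 8 h all 3 were far below their values at both other times, so that in TE13R fall and return both rest on that 1 array. In TE13, FYB1 had 334, -4.01 and 72.2 and FBXO32 had 1068, 169 and 6193 at the same times. CLIC3, a chloride channel protein, had 208, 14.5 and 937 at 0, 8 and 24 h in TE13R and ended above its starting value. WNT5A, a secreted ligand of noncanonical WNT signalling, had 207, 42.9 and -1.13 and kept falling, as did TXNIP, described with the changes of both lines. RSRP1, a nuclear protein rich in arginine and serine, had 248 at 0 h and was below the limit at both later times, at least 12.3-fold lower, though another probe of it changed by -1.48 at 8 h and -0.87 at 24 h on the log2 scale.

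**Figure D2:**
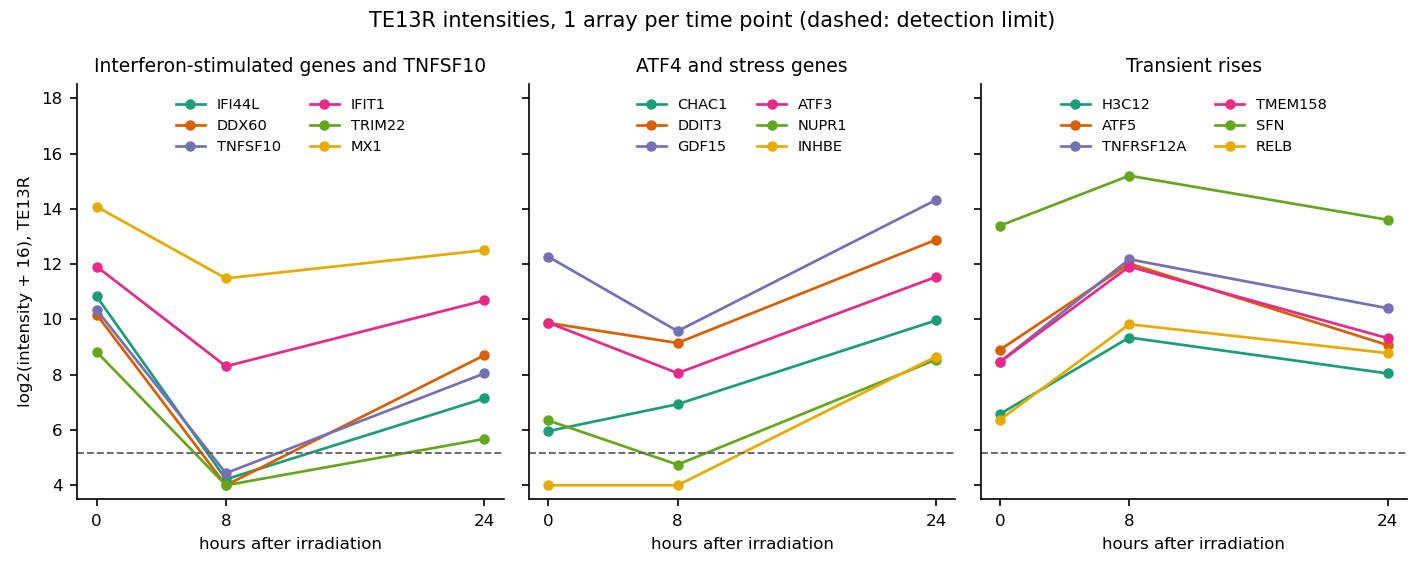
Intensity of 18 genes in TE13R at 0, 8 and 24 h after irradiation, as log2(intensity + 16), with the detection limit of 20.2 as a dashed line and 1 array per time point. The interferon-stimulated genes and TNFSF10 were lowest at 8 h, the stress genes highest at 24 h, and the genes of the right-hand panel highest at 8 h.

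Target genes of ATF4, which supply amino acids or shut down the stress response, were more often lower than higher at 8 h and more often higher than lower at 24 h, though most changed less than 2-fold at either time. Of 28 measured, 11 were lower and 1 was higher (ATF5) at 8 h, with a median of -0.46. At 24 h, 9 were higher and 0 were lower, with a median of 0.76, and 18 were higher and 1 (ATF5) was lower at 24 h than at 8 h. The 11 genes lower at 8 h are 39.3% of the list, against 26.3% of all genes. The 9 higher at 24 h are 32.1%, against 20.4%, and the 18 are 64.3%, against 11.3%. CHAC1, which degrades glutathione, had 46.3 at 0 h, 106 at 8 h and 982 at 24 h. It was 21.2-fold higher at 24 h. DDIT3, the apoptotic factor CHOP, had 921, 552 and 7536 at 0, 8 and 24 h, and was 8.18-fold higher at 24 h. The array at 24 h stood well above both others for CHAC1 and DDIT3.

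ATF3, a stress-induced repressor, had 928 at 0 h, 250.3 at 8 h and 2956 at 24 h, so that it was 3.71-fold lower at 8 h and 3.19-fold higher at 24 h. NUPR1, a chromatin-associated stress protein, had 65.2, 10.8 and 357 at the same times. CTH, which makes cysteine, had 131, 16.7 and 263. ASNS, the asparagine synthetase, had 5912, 2929.8 and 6702 and was 2.02-fold lower at 8 h, but a second ASNS probe changed by 0.36 at 8 h and 1.24 at 24 h on the log2 scale. PPP1R15A, the phosphatase subunit that reverses the stress response, had 2743, 3550.3 and 11315 and was 4.12-fold higher at 24 h. ATF4 itself, which is controlled mainly at translation, had 11494, 11776 and 18131 by its brightest probe. Its other probes moved opposite ways at 24 h, by -2.23 and 1.49 on the log2 scale. ATF5 ran the other way from its list, with 463 at 0 h, 4143 at 8 h and 521 at 24 h.

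The promoters of CHAC1 and ATF3 are shown as those of the list that rose at 24 h and hold the ATF4 site, the amino acid response element. The letters searched were TGATGNAA on both strands, marked in capitals. The windows are chr15:40953232-40953299 (+) for CHAC1 and chr1:212565186-212565253 (+) for ATF3.
CHAC1: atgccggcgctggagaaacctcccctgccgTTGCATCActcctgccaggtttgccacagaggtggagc
ATF3: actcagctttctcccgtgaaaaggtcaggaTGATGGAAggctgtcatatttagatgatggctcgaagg
Of the 23 measured members with a window, 5 (21.7%) hold the letters, against 3.67% of all windows and 1.87% of the windows of measured genes. Of the 15 with a window that were higher at 24 h than at 8 h, 3 (20%) hold them. Of the 10 with a window that were lower at 8 h, 3 (30%) hold them.

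GDF15, a secreted stress hormone and target of both p53 and ATF4, had 4917 at 0 h, 748 at 8 h and 20486 at 24 h. It was 6.58-fold lower at 8 h and 4.17-fold higher at 24 h, and 27.4-fold higher at 24 h than at 8 h. In TE13, GDF15 had 514, 848 and 23457 at the same times, so that its fall at 8 h was not shared. INHBE, a secreted inhibin subunit, was below the limit at 0 h and 8 h in TE13R and had 387 at 24 h, which was at least 19.2-fold higher. It had the largest rise of any measured gene at 24 h on the log2 scale, 4.66. Other genes that rose most at 24 h were PRPH, a neuronal intermediate filament, with 163, 78.5 and 2455, and IL11, a cytokine of the IL6 family, with 39.4, 139 and 597 at 0, 8 and 24 h. CYP1A1, the enzyme induced by the aryl hydrocarbon receptor, had 78.9, 145 and 844. EEF1A2, a tissue-restricted elongation factor, had 35.8, 123 and 468, and was 13.1-fold higher at 24 h.

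The chaperones of the endoplasmic reticulum, which fold secreted proteins, were mostly lower at 8 h. Of 22 measured, 14 were lower and 1 was higher (CALR) at 8 h, with a median of -1.24. With the median change of genes of like span taken off, that median was -0.97, under the 2-fold level. At 24 h, 4 were lower and 3 were higher (SDF2L1, CALR and CRELD2), and 11 were higher and 0 lower at 24 h than at 8 h. The 14 genes lower at 8 h are 63.6% of the list, against 26.3% of all genes, and the 11 are 50%, against 11.3%. At 24 h, 18.2% were lower and 13.6% higher, against 22.3% and 20.4% of all genes. HSPA5, the chaperone BiP, had 2469.6 at 0 h, 454 at 8 h and 1545 at 24 h. HSP90B1, which folds secreted and membrane proteins, had 25166, 4477 and 10089, and was 5.62-fold lower at 8 h and 2.49-fold lower at 24 h. XBP1, a transcription factor of the unfolded protein response, had 13584, 4596 and 12277. In TE13 the median of the list was -0.62 at 8 h and 0.55 at 24 h.

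Heat shock proteins and chaperones moved in both directions. Of 23 measured, 7 were lower and 1 (FKBP4) was higher at 8 h, and 7 were lower and 4 higher at 24 h (HSPA6, HSPA1A, CRYAB and FKBP4). The 7 lower genes are 30.4% of the list, against 26.3% of all genes at 8 h and 22.3% at 24 h. HSPA6, an inducible chaperone that most unstressed cells hardly express, had 1049 at 0 h, 661 at 8 h and 5074 at 24 h. It was 4.83-fold higher at 24 h. HSPD1, the mitochondrial chaperonin, had 13001, 2838 and 2584, and was 5.03-fold lower at 24 h. The promoter of HSPA6 is shown as that of the member with the largest rise, with the heat shock element in capitals, which is GAA, TTC and GAA with any 2 letters between each, searched on both strands (chr1:161524436-161524508, +).
HSPA6: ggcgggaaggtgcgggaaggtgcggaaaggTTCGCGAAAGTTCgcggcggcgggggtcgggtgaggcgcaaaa
Of 21 measured members with a window 5 (23.8%) hold these letters, against 0.487% of all windows. They were found in 2 of the 7 (28.6%) lower at 8 h. Of the 3 higher at 24 h than at 8 h, 1 (33.3%) holds them.

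Targets of p53 moved in both directions. Of 22 measured, 8 were higher and 6 lower at 8 h, with a median of 0.04, and 6 were higher and 2 lower (RRM2B and SESN1) at 24 h, with a median of 0.40. At 8 h this is 36.4% higher and 27.3% lower, against 22% and 26.3% of all genes. At 24 h it is 27.3% higher and 9.09% lower, against 20.4% and 22.3%. CDKN1A, the inhibitor p21 that halts the cell cycle, had 3931 at 0 h, 4203 at 8 h and 11530.4 at 24 h, so that it was 1.07-fold higher at 8 h and 2.93-fold higher at 24 h. AEN, a nuclease of the apoptotic response, had 1106, 5342 and 2546 and was 4.83-fold higher at 8 h. BAX, which opens the mitochondrial membrane in apoptosis, had 535, 1887 and 686, and PHLDA3, which restrains AKT, had 864, 2764 and 2295. These 3 were highest at 8 h, where CDKN1A was near its value at 0 h. RRM2B, the p53-controlled subunit of ribonucleotide reductase, had 222, 4.87 and 55.5 and was below the limit at 8 h. PPM1D, the phosphatase that shuts off p53, had 129, 10.2 and 90.1, and PMAIP1, the apoptotic protein NOXA, had 73.6, 19.1 and 275.

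Genes of double-strand break repair were more often lower than higher. Of 24 measured, 13 were lower and 2 higher (XRCC3 and H2AX) at 8 h, with a median of -1.15, and 10 were lower and 1 (XRCC3) higher at 24 h, with a median of -0.93. The lower ones are 54.2% of the list at 8 h and 41.7% at 24 h, against 26.3% and 22.3% of all genes. ATM, the kinase that starts the response to breaks, had 159 at 0 h, -1.83 at 8 h and 8.70 at 24 h. It was at least 7.88-fold lower at both later times. MRE11, a nuclease that binds broken ends, had 331, 23.6 and 97.4, but a second MRE11 probe changed by -0.69 at 8 h on the log2 scale. BARD1, the partner of BRCA1, had 2089.7, 486 and 639, and TP53BP1, which marks breaks for end joining, had 2683, 719 and 788. XRCC3, which serves homologous recombination, had 552, 2009 and 1644. The median span of these genes from start to end was 52.7 kb, and once the median change of genes of like span was taken off, the median of the list was -0.43 at 8 h and -0.45 at 24 h.

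Fewer genes of G2 and mitosis were lower in TE13R than in TE13. Of 35 measured, 10 were lower and 1 higher (BIRC5) at 8 h in TE13R, with a median of -0.52, and in TE13 22 were lower and 0 higher, with a median of -1.54. The 10 genes are 28.6% of the list, near the 26.3% of all genes that were lower at 8 h in TE13R. Over all genes of TE13, 29.1% were lower and 26.7% higher at 8 h, and 28.5% were lower and 27% higher at 24 h. At 24 h, 15 were lower and 0 higher in TE13R, with a median of -0.89, and 20 were lower and 1 higher in TE13, with a median of -1.55. In TE13R the 15 genes are 42.9% of the list, against 22.3% of all genes. The difference between the lines was not tested. KIF11, the motor that separates the spindle poles, had 1934 at 0 h, 372 at 8 h and 301 at 24 h in TE13R. AURKA, a mitotic kinase, had 7679, 3979.9 and 2975, and MKI67, a marker of dividing cells, had 248, 220.0 and 115. In TE13, AURKA had 18556, 4586 and 5214 at the same times. The 0 h array was thus higher in TE13 for this gene, and the later arrays were closer between the lines.

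Of 31 genes of G1/S and DNA replication measured in TE13R, 8 were lower and 4 higher at 8 h (UNG, CDT1, CDC25A and CHAF1A), and 10 were lower and 2 higher at 24 h (RFC2 and MCM5). The lower ones are 25.8% of the list at 8 h and 32.3% at 24 h, against 26.3% and 22.3% of all genes. The subunits of ribonucleotide reductase, which supplies DNA precursors, were among the lower ones. RRM1 had 17393, 3088 and 4087 and RRM2 had 1739, 625 and 268 at 0, 8 and 24 h. UNG, which removes uracil from DNA, ran the other way at 8 h, with 656, 2879.9 and 914.

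Replication-dependent histone genes, which package newly made DNA and whose transcripts normally end without a poly(A) tail, were the list with the highest median at 8 h. Of 50 measured, 39 were higher and 1 was lower (H2AC11) at 8 h, with a median of 1.83. At 24 h, 20 were higher and 3 lower (H3C13, H2AC11 and H2BC12), with a median of 0.89. Between 8 h and 24 h, 20 fell and 0 rose. The 39 genes higher at 8 h are 78% of the list, against 22% of all genes. At 24 h, 40% were higher, against 20.4%, and 40% fell between 8 h and 24 h, against 7.71%. H3C12 had 79.6 at 0 h, 635 at 8 h and 248 at 24 h, while H4C9 had 9.57, 149 and 7.62. H4C12 stayed high, with 519.9, 3038 and 2780.4. SLBP, the protein that binds histone transcripts, was lower, with 3089, 1309 and 1071, though a second SLBP probe changed by 0.10 at 8 h and 0.28 at 24 h on the log2 scale. Histone genes are near-identical copies, so that their probes may share signal. Their median span was 0.494 kb, and with the median change of genes of like span taken off the median of the list was 1.19 at 8 h and 0.21 at 24 h.

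Small structured noncoding RNAs were more often higher than lower. Of 39 measured, 23 were higher, 0 were lower and 16 changed less than 2-fold at 8 h, with a median of 1.35, and 19 were higher and 5 lower at 24 h (SNORD14A, SNORD36C, SNORD31, SNORD14D and RN7SL1). The higher ones are 59% of the list at 8 h and 48.7% at 24 h, against 22% and 20.4% of all genes. The 5 lower ones are 12.8%, against 22.3%. With the median change of each gene's span bin taken off, the median was 0.63 at 8 h and 0.27 at 24 h, both under the 2-fold level. Their median span was 0.088 kb, so this list too was set against mostly longer genes. RNU6ATAC, a small nuclear RNA of the minor spliceosome, had 33.9 at 0 h, 732 at 8 h and 582 at 24 h, while RNU11 of the same spliceosome had 72.1, 657 and 787. RPPH1, the RNA of ribonuclease P, had 100.4, 1164 and 505, and RN7SK, which holds the elongation factor P-TEFb in check, had 1362, 5828 and 4393. RN7SL1, the RNA of the signal recognition particle, fell at 24 h, with 32626, 18068 and 13495. SNAR-A1 and BCYRN1, noncoding RNAs made by RNA polymerase III that are outside this list, were among the largest rises. SNAR-A1 had 403, 8183 and 9244, a 20.3-fold higher value at 8 h and a 23.0-fold higher value at 24 h. BCYRN1 had 679.8, 9387 and 6686. SNAR-A1 is 1 of many near-identical copies and BCYRN1 resembles Alu repeats, so both are uncertain.

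The changes went with the span of the gene. The measured genes were set in 4 bins of equal size by the span from start to end in the RefSeq table, with median spans of 5.19, 17.5, 41.4 and 122 kb. In TE13R the median change at 8 h was 0.71, 0.24, -0.36 and -0.84 from the shortest to the longest bin, and at 24 h it was 0.68, 0.24, -0.31 and -0.64. At 8 h, 38.8% of the genes in the shortest bin were higher and 8.33% were lower, while 10.2% of those in the longest bin were higher and 44.9% were lower. Between 8 h and 24 h the medians were -0.10, -0.01, 0.07 and 0.18, so that little of this trend lay between the later arrays. TE13 showed medians of 0.95, 0.34, -0.37 and -0.95 at 8 h. What gene span stands for here was not tested.

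**Figure D3:**
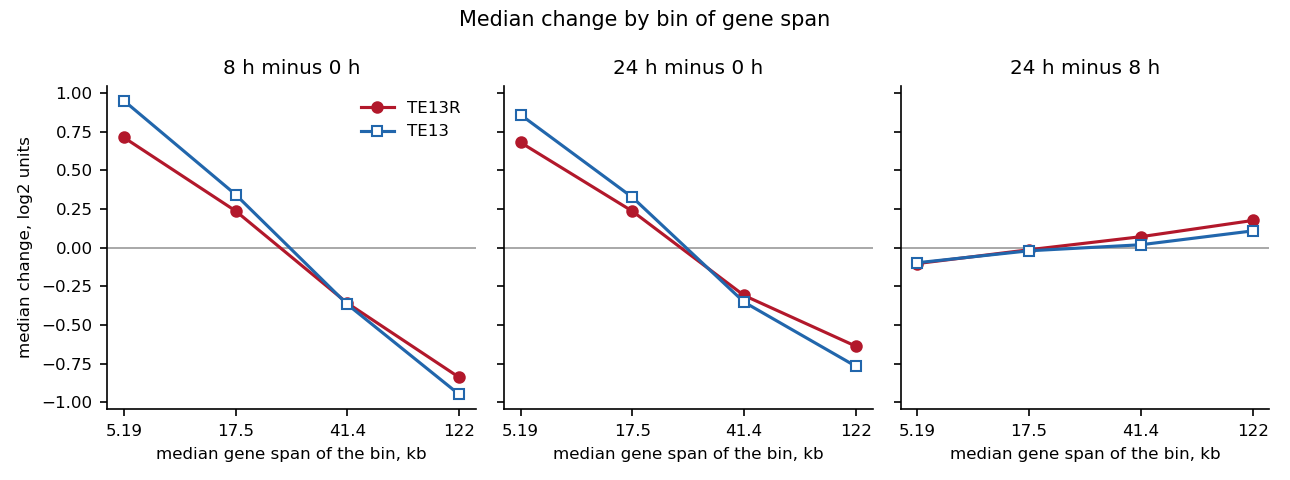
Median change in log2 units by bin of gene span, for TE13R (filled circles) and TE13 (open squares), with the median span of each bin in kb on the horizontal axis. In both comparisons with 0 h the medians of TE13R fall from above 0.6 in the shortest bin to below -0.6 in the longest, and the comparison of 24 h with 8 h stays between -0.10 and 0.18.

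Transcripts of RNA processing were more often lower than higher. Of 18 transcripts known for detained introns or retention in the nucleus, 10 were lower and 2 higher (LUC7L and CLK1) at 8 h, and 11 were lower and 2 higher (CCNL2 and CLK3) at 24 h, with medians of -1.49 and -1.54. The lower ones are 55.6% at 8 h and 61.1% at 24 h, against 26.3% and 22.3% of all genes. GOLGA8B, a member of a golgin family of near-identical copies whose values are uncertain for that reason, had 3690.1 at 0 h, 105 at 8 h and 255 at 24 h. OGT, which adds sugar to nuclear proteins, had 925, 68.7 and 108 and was 13.5-fold lower at 8 h. Of 38 SR proteins and hnRNPs, the main splicing regulators, 14 were lower and 1 higher at 8 h, and 21 were lower and 1 higher at 24 h, with HNRNPUL2 the higher one both times. The lower ones are 36.8% at 8 h and 55.3% at 24 h, against the same shares of all genes. SRSF6 had 9595, 2897 and 1316 and was 7.29-fold lower at 24 h. SRSF6 fell further between 8 h and 24 h, unlike most genes that were lower at 8 h.

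Mitochondrial ribosomal proteins were more often higher than lower. Of 77 measured, 33 were higher and 6 lower at 8 h, with a median of 0.81, and 18 were higher and 7 lower at 24 h, with a median of 0.50. Against genes of like span these medians were 0.50 at 8 h and 0.04 at 24 h. The 33 genes higher at 8 h are 42.9% of the list, against 22% of all genes. The 18 genes higher at 24 h are 23.4% of the list, near the 20.4% of all genes. MRPS34 had 429, 2143 and 1077 at 0, 8 and 24 h, while MRPS10 had 7705, 1545 and 2734. Of 68 respiratory chain and ATP synthase genes 17 were higher and 5 lower at 8 h. The 17 are 25% of the list, near the 22% of all genes, and the 5 are 7.35%, against 26.3% of all genes. The 74 cytosolic ribosomal proteins had a median of 0.08 at 8 h and 0.10 at 24 h, with 10 and 9 of them higher and 2 and 4 lower. The higher ones are 13.5% and 12.2%, against 22% and 20.4% of all genes. The lower ones are 2.7% and 5.41%, against 26.3% and 22.3%.

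Immediate early genes, which respond to growth signals and stress, were more often higher than lower, with 7 higher and 3 lower (ATF3, NR4A2 and BTG1) of 25 at 8 h and 14 higher and 2 lower (KLF6 and KLF10) at 24 h. The higher ones are 28% of the list at 8 h and 56% at 24 h, against 22% and 20.4% of all genes. The median was 0.42 at 8 h and 1.07 at 24 h, but against genes of like span it turned to -0.29 at 8 h and was 0.39 at 24 h. FOSL1, a partner of JUN, had 1997 at 0 h, 14535 at 8 h and 4946 at 24 h, while FOS had 1291, 643 and 3491. JUN had 379, 1155 and 1903. Among genes of NF-kB signalling, RELB, a subunit of the noncanonical pathway, had 66.7, 892 and 424 and was 13.4-fold higher at 8 h, and NFKB2, its precursor partner, had 141, 877 and 541. TNFRSF12A, the receptor of TWEAK that feeds this pathway, had 339, 4611 and 1340.2 and was 13.6-fold higher at 8 h. TMEM158, a membrane protein first seen in RAS-induced senescence, had 336, 3837 and 624. SFN, the 14-3-3 protein of squamous cells, had 10729, 37625 and 12452. TMEM158 and SFN were close to their 0 h values again at 24 h.

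Genes that join epithelial cells to one another were more often lower than higher. Of 20 measured, 13 were lower and 1 higher (PKP3) at 8 h, and 9 were lower and 1 higher (CLDN3) at 24 h, with a median of -1.37 at 8 h. The lower ones are 65% of the list at 8 h and 45% at 24 h, against 26.3% and 22.3% of all genes. With the median change of genes of like span taken off, the median at 8 h was -0.90, under the 2-fold level. DSG3, a desmosomal cadherin of squamous cells, had 1855 at 0 h, 203 at 8 h and 717 at 24 h. It was 9.13-fold lower at 8 h. CDH1, the adherens junction cadherin, had 4375, 1718 and 1949. Of 6 clade B serpins measured, which inhibit proteases in squamous epithelium, 4 were lower and 1 was higher (SERPINB8) at 8 h. The 4 are 66.7% of the list, against 26.3% of all genes. SERPINB3, a squamous cell carcinoma antigen, had 401, 13.3 and 8.17 and was at least 19.9-fold lower at both times. SERPINB5 had 12629, 3166 and 2271, and SERPINB7 had 107, 84.7 and 90.0.

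Keratins moved in both directions. Of 19 measured, 8 were higher and 3 lower at 8 h, and 5 were higher and 4 lower at 24 h. At 8 h this is 42.1% higher and 15.8% lower, against 22% and 26.3% of all genes. At 24 h it is 26.3% higher and 21.1% lower, near the 20.4% and 22.3% of all genes. The median of the list was 0.58 at 8 h, and 0.02 with the median change of genes of like span taken off. KRT16, a keratin of stressed epithelium, had 349 at 0 h, 2109 at 8 h and 1046 at 24 h, while KRT14 had 957, 2848 and 1069. KRT13 had 33269, 9458 and 11299, KRT15 had 5058, 1152 and 1872, and KRT4 had 1004, 606 and 154. KRT13 was 3.52-fold lower at 8 h and 2.94-fold lower at 24 h. In TE13, KRT13 had 246, 1099.8 and 2465 at 0, 8 and 24 h, so that the 0 h array of TE13R stood far above that of TE13, and the lines moved towards each other. GJB2, a gap junction protein, had 2697, 1122 and 619 in TE13R, and 109.6, 123 and 155 in TE13.

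The aldo-keto reductase AKR1C3, the gene on which the study turned, had 37103 at 0 h, 26809 at 8 h and 31318 at 24 h in TE13R. It was 1.38-fold lower at 8 h and 1.19-fold lower at 24 h, both under the 2-fold level. The aldo-keto reductases of this family are near-identical copies, so its probe may share signal with them. Its paralog AKR1C2 had 51297, 37370.5 and 54119.7 by its brightest probe, while another AKR1C2 probe changed by -4.83 at 8 h and -3.61 at 24 h on the log2 scale. The probes of AKR1C1 and AKR1C4 did not pass the limit on average. Among antioxidant genes, HMOX1, which degrades heme, had 516, 1931 and 1876, whereas CAT, the catalase, had 2666, 363 and 662 by its brightest probe. A second CAT probe changed by only -0.50 at 8 h and 0.10 at 24 h on the log2 scale. SOD1, the cytosolic superoxide dismutase, had 15745, 19315 and 19290.2. Of 29 NRF2 targets and glutathione enzymes, 8 were lower and 1 higher (HMOX1) at 8 h. The 8 genes are 27.6% of the list, near the 26.3% of all genes that were lower at 8 h. The metallothioneins, which bind zinc and are near-identical copies, included MT2A with 5722, 21303 and 16903.

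Most changes of TE13R were shared by TE13. A change was called shared where TE13 itself moved in that direction at least 2-fold, and not shared where TE13 moved less than 0.32 log2 units the same way or moved the other way, with at least 1 log2 unit between the changes and TE13 above the limit on 1 of its arrays. Of the 5336 genes changed at 8 h (48.3% of those measured), 4453 (83.5%) were shared, 612 were partly shared, 159 were not shared (1.44% of the genes measured) and 112 were below the limit in TE13. Of the 4724 changed at 24 h (42.7%), 4019 (85.1%) were shared and 111 (1% of the genes measured) were not. Of the 2101 that differed between 24 h and 8 h (19%), 1119 (53.3%) were shared and 284 (2.57%) were not. In TE13, 10.4% of the same 11051 genes were higher and 7.59% lower at 24 h than at 8 h. With 1 array for each line and time, whether a change that was not shared is particular to TE13R was not tested.

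**Figure D4:**
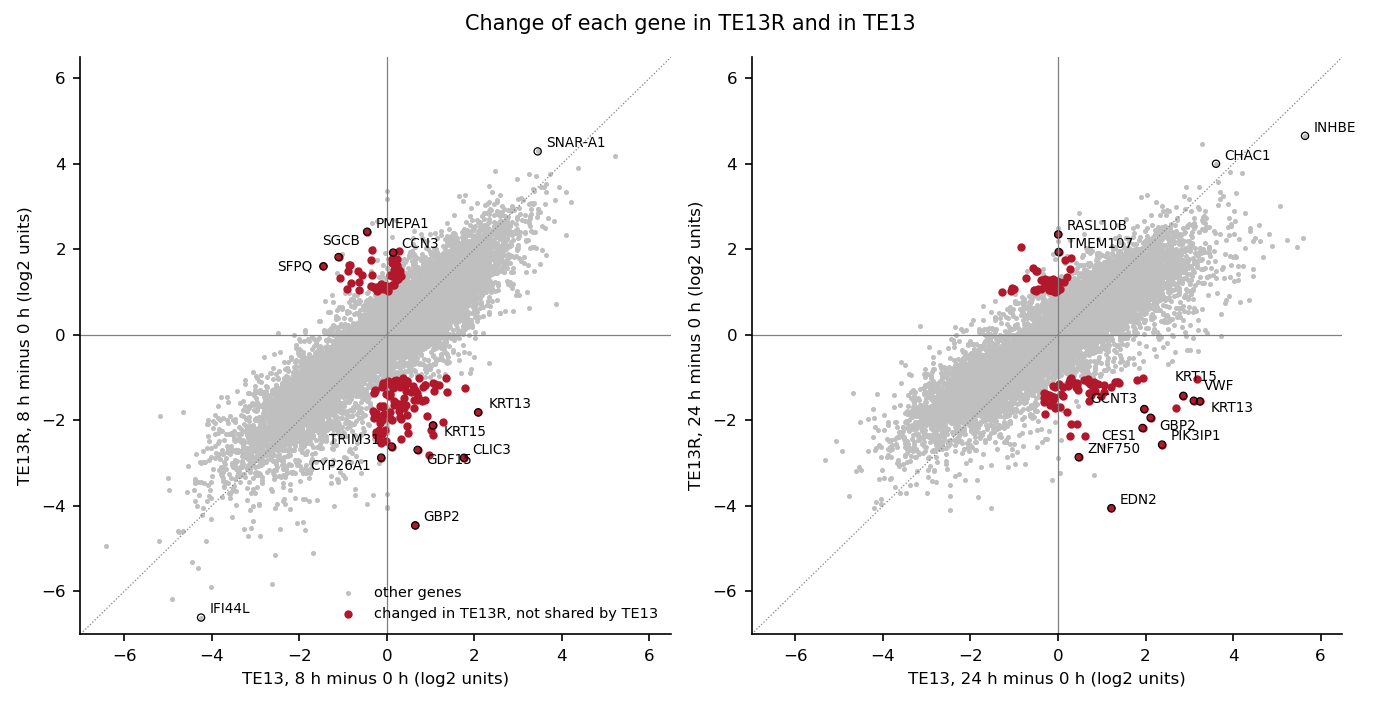
Change of each of 11051 genes in TE13R (vertical axis) and TE13 (horizontal axis) at 8 h and at 24 h, both minus 0 h, in log2 units, with the dotted line marking equal change. Red points are changes of TE13R that TE13 did not share, 159 at 8 h and 111 at 24 h, and genes named in the text are labelled. Most genes lie along the dotted line.

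Among the changes not shared at 8 h, 104 were falls and 55 were rises. GBP2, an interferon-inducible GTPase, had 801 at 0 h, 21.2 at 8 h and 197 at 24 h in TE13R, and 77.8, 131 and 391 in TE13. It fell 37.8-fold at 8 h in TE13R, while TE13 changed by 0.65 on the log2 scale. CYP26A1, which degrades retinoic acid, had 618, 70.6 and 659.5 in TE13R and 229, 208 and 376 in TE13. TRIM31, a ubiquitin ligase, had 488, 66.3 and 81.4 in TE13R and 30.8, 34.6 and 55.8 in TE13. OAS1, a sensor of double-stranded RNA, was the 1 member of the list of interferon-stimulated genes, which does not hold GBP2, whose fall at 8 h was not shared, with 1839, 859.8 and 2308 in TE13R and 1669, 2300.5 and 3748 in TE13. In TE13R the 0 h array was the highest of the line for GBP2 and TRIM31, and above that of TE13.

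Among the rises at 8 h that TE13 did not share were those of dim genes. PMEPA1, which dampens TGF-beta signalling, had 26.3 at 0 h, 209 at 8 h and 32.6 at 24 h in TE13R, and 1002, 729.6 and 97.6 in TE13. CCN3, a matricellular protein, had 68.4, 304 and 91.3 in TE13R, and 444, 493 and 154 in TE13. Both started lower in TE13R and were near their 0 h values again at 24 h.

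At 24 h, 70 of the changes not shared were falls and 41 were rises. EDN2, an endothelin, had 249.9 at 0 h and was below the limit at 8 h and 24 h in TE13R, at least 12.4-fold lower, while in TE13 it was below the limit at 0 h and 8 h and had 21.3 at 24 h, just above the limit, so that its fold there was at least 1.055 only. ZNF750, a transcription factor that drives the late differentiation of squamous cells, had 360.3, 11.9 and 35.8 in TE13R, and 70.2, 36.1 and 104 in TE13. CES1, a carboxylesterase, had 143, 245 and 19.1 in TE13R, and 187, 567 and 759 in TE13. VWF, the carrier of factor VIII, had 940.0, 62.6 and 313 in TE13R, and 44.3, 20.6 and 502 in TE13. Other endothelial markers such as CDH5 and KDR were below the limit in TE13R.

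The largest rises at 24 h that TE13 did not share were those of RASL10B, SNHG10, TMEM107, KCNJ5, DNMT3A and CLUL1. KCNJ5, DNMT3A and CLUL1 are dim, being below the limit at 0 h with 53.7, 83.8 and 91.2 at 24 h in TE13R. Another DNMT3A probe changed by -0.57 at 24 h on the log2 scale. RASL10B, a small GTPase, had 30.1, 167 and 219 in TE13R, and 23.0, 123 and 23.1 in TE13, so that both lines rose at 8 h and only TE13R was still high at 24 h. TMEM107, a protein of the cilium base, had 1098, 976 and 4255 in TE13R, and 753, 707 and 762 in TE13. Another TMEM107 probe changed by -1.45 at 24 h on the log2 scale in TE13R. TXNIP, which binds thioredoxin and slows glucose uptake, was not among these rises. It had 386, 38.7 and 8.10 in TE13R, and 228, 16.6 and 68.7 in TE13, lower than at 0 h in both lines at both later times. Only between 8 h and 24 h did the lines move opposite ways, by -1.18 in TE13R and 1.38 in TE13 on the log2 scale.

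Genes with several probes show how far a value depends on the probe. Of 2637 genes with more than 1 probe above the limit, 1230 were changed at 8 h, and in 716 of these (58.2%) every probe changed 2-fold or more in 1 direction. In 66 (5.37%) a probe moved at least 2-fold the other way. At 24 h, 615 of 1172 (52.5%) had all probes at least 2-fold the same way and 49 (4.18%) had one the other way.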

How the data were processed

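RNA of TE13R and TE13 at 0, 8 and 24 h after irradiation was hybridised to 6 one-colour Illumina Human-6 V3 arrays. Intensity values read with BeadStudio were deposited by the authors per probe on a linear scale, after subtraction of the background. The arrays had been brought to 1 scale (median 7.95 to 7.96, 95th percentile 2891 to 2897), and were used as they stood. How the authors did this, and which BeadStudio version they used, was not found in the labels or methods. No detection p-values are in the table used here, and the DiffScore of the methods was not computed.

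Of 48803 probes, 27578 have 1 gene symbol in the platform annotation, 13 have several and 21212 have none, and 27541 have an entry in RefSeq (GRCh38.p14), where 0 symbols had to be updated and from which the gene spans came (99.9% of the genes measured). Promoter windows came from RefSeq, and the first window listed was used for each gene. Analyses ran in Python 3.11.15 (numpy 2.4.6, pandas 2.3.3) and were tested on simulated data. With 1 array per group no model was fitted. The genes and the 41 gene lists were chosen with earlier results of these data known. Genes are named by a rule: the 10 largest rises and falls at 8 h and at 24 h, the 6 largest each way that TE13 shared and did not share, the 5 largest each way between 24 h and 8 h, up to 4 members of each list (all of a list with at most 6 measured), AKR1C3 with its paralogs, and ACTB, GAPDH and SOD1. Provisional names and genes on the Y chromosome were passed over, and not every gene is reported. Other genes in the text fall outside the rule and were picked once their values had been seen. The alternatives were offsets of 1 and 64, no filter and a stricter filter (mean over 100), quantile normalization, centring, the mean of a gene's probes, other folds, and, chosen after seeing the data, setting each change against its bin of gene span, and 8 h as baseline.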

Additional observations from a re-analysis of the deposited data

Results flagged for a closer look

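Some genes changed at least 2-fold one way in TE13R and at least 2-fold the other way in TE13 on the log2(intensity + 16) scale. With 1 array per line and time point, the difference between the lines was not tested for any of them. Values are changes in log2 units.

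At 8 h against 0 h, CLIC3 changed by -2.88 in TE13R and 1.76 in TE13, KRT13 by -1.81 in TE13R and 2.09 in TE13, and KRT15 by -2.12 in TE13R and 1.05 in TE13. SFPQ, a splicing and repair factor, changed by 1.60 in TE13R and -1.45 in TE13, and SGCB, a membrane protein of the sarcoglycan complex, by 1.82 in TE13R and -1.10 in TE13.

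At 24 h against 0 h, EDN2 changed by -4.05 in TE13R and 1.22 in TE13. The TE13 value rests on an intensity just above the limit against one below background, and as a ratio it is at least 1.055-fold only, so that no 2-fold rise of EDN2 in TE13 was measured. PIK3IP1, an inhibitor of PI3 kinase, changed by -2.57 in TE13R and 2.38 in TE13, and CES1 by -2.18 in TE13R and 1.93 in TE13. GBP2 changed by -1.94 in TE13R and 2.12 in TE13, GCNT3, which branches mucin sugars, by -1.74 in TE13R and 1.97 in TE13, and VWF by -1.54 in TE13R and 3.10 in TE13. KRT13 changed by -1.56 in TE13R and 3.24 in TE13, KRT15 by -1.43 in TE13R and 2.86 in TE13, and PI3, the protease inhibitor elafin, by -1.07 in TE13R and 1.79 in TE13.

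Between 24 h and 8 h, ATG16L2, a relative of an autophagy protein, changed by -1.88 in TE13R and 1.78 in TE13, and TXNIP by -1.18 in TE13R and 1.38 in TE13.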

How the results depend on the processing

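Counts of changed genes in TE13R moved by over 1.5 times with the fold asked for and, between the later arrays, with the treatment of dim genes. At 8 h, 5336 genes changed 2-fold and 2659 changed 3-fold. At 24 h, 4724 changed 2-fold, 7352 changed 1.5-fold and 1761 changed 3-fold. Between 24 h and 8 h the count was 2101, against 1163 with an offset of 64, 1320 with a mean intensity above 100, 4334 at 1.5-fold and 758 at 3-fold. Changes not shared by TE13 at 8 h numbered 159, against 82 with an offset of 64, 83 with a mean intensity above 100, 279 at 1.5-fold and 63 at 3-fold. At 24 h they numbered 111, against 197 with an offset of 1, 53 with an offset of 64, 59 with a mean intensity above 100, 237 at 1.5-fold and 22 at 3-fold. Gene lists with a median change of at least 2-fold numbered 9 at 8 h and 4 without a filter on dim probes. At 24 h they numbered 5, against 8 with an offset of 1, 2 with an offset of 64, 2 without a filter, 3 with the median change of each bin of gene span taken off and 1 with 8 h as the baseline. With each array centred on its median, 2775 genes were higher and 2638 lower at 8 h, where the main values were 2433 and 2903, and the median over all genes was 0.12 in place of 0.01. The last 2 settings for the lists were chosen after seeing the data. Beyond what follows from the fold or filter itself, the cause was not tested. With the mean of a gene's probes, ERAP2 at 24 h was -0.53 in place of 1.11 and ZMAT3 was -0.68 in place of 1.49 on the log2 scale, since their probes moved opposite ways. Of 7269 values of named genes under the alternatives, 6403 stayed within 0.5 log2 units of the main value, 864 moved further and 2 changed direction, and 895 of 933 list medians stayed within it. No paired analysis was possible because each line and time point had 1 array and no test was made. Signal over background limits the dim genes, since 37.3% of probes were above the limit.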
